A study of Mus musculus with 9 samples.

Results

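The genes described here are 31 enzymes, regulators and lipid handling genes of sterol and fatty acid synthesis, measured by RNA-seq in a mouse podocyte line after knockdown of Usp40. They were taken by symbol from a list and grouped by their role in the pathway, and all 31 were found among the 25655 genes of the deposited table. They comprise 6 enzymes that build farnesyl diphosphate through mevalonate, 11 enzymes from squalene to cholesterol, 5 regulators, 3 genes grouped as sterol handling and 6 genes of fatty acid synthesis and use. The thiolase Acat2, which joins acetyl-CoA units, is counted with sterol handling and not with the mevalonate enzymes.

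Podocytes are the cells that wrap the filtering capillaries of the kidney. The cells were 1 wild-type immortalized mouse line, grown at a permissive 33 °C with interferon-γ and kept at 37 °C without it for 10 to 14 days before transfection. All 9 libraries came from cells transfected with a Silencer Select siRNA by Lipofectamine RNAiMAX, with RNA taken 48 h later: 3 with Negative Control No.1, 3 with s105625 (siRNA 1) and 3 with s105626 (siRNA 2), both against the deubiquitinase gene Usp40. The libraries are labelled as biological replicates, but nothing says that each had a culture of its own, so a p-value here speaks of the spread from library to library.

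Cholesterol is made from acetyl-CoA by way of mevalonate, farnesyl diphosphate and squalene, and fatty acids are made from acetyl-CoA by way of malonyl-CoA. When membranes of the endoplasmic reticulum are poor in sterol, SCAP carries the SREBP transcription factors to the Golgi, where they are cut and released to switch on most of these enzymes, and when sterol is plentiful the INSIG proteins hold SCAP back. In podocytes cholesterol is known for its place in the membrane domains that anchor the slit diaphragm, the filter between neighbouring foot processes.

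The libraries held 9786270 to 13675426 gene counts, and Usp40 was at 44.2% of its control level with siRNA 1 and at 54.2% with siRNA 2. Among podocyte markers, Nphs1, Ptpro, Tcf21 and Trpc6 each had 10 or fewer counts over all libraries, while Podxl, Synpo, Cd2ap and Actn4 were well counted. The label podocyte therefore rests on the second set of genes and not on the slit diaphragm gene Nphs1. The adipocyte markers, a check for another lipid-making cell, summed to at most 0.0857 CPM (counts scaled to the size of the library) in control, 0.268 CPM with siRNA 1 and 0 with siRNA 2. Of 12 markers of mesangial or fibroblast, endothelial, tubular and immune cells that could be tested, edgeR called 0 with siRNA 1 and 5 with siRNA 2, where Pdgfrb and Flt1 rose (136% and 180% of control, adjusted p = 0.0131 and 0.00491) and Aqp1, Csf1r and Ptprc fell (80.8%, 78.9% and 43.1%, adjusted p = 0.0268, 0.0262 and 0.00701). In control, siRNA 1 and siRNA 2 libraries the lists summed to 73.6 to 85.2, 79.9 to 96.2 and 82.1 to 86.1 CPM for mesangial or fibroblast cells and to 5.74 to 8.05, 9.03 to 12.2 and 11.2 to 13.5 CPM for endothelial cells. The sums were 339 to 408, 335 to 383 and 331 to 415 CPM for tubular cells and 62.1 to 63.4, 56.6 to 63.7 and 51.3 to 56 CPM for immune cells. Emcn, Adgre1 and Cd3e had 0 counts in all libraries, and the part of these markers in the results below was not tested. The first control library stood apart: its log2 level moved by -0.163 per doubling of gene length against the mean of all libraries, where the other 8 lay between -0.0757 and 0.0943. Long genes were thus counted low and short genes high in it, and results below are also given without it where that matters.

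Promoters of members are shown because SREBP targets are known to share a sterol regulatory element and CCAAT boxes bound by NF-Y. RefSeq promoter windows (GRCm38.p6, 250 bases before to 50 after each annotated start) matched 25 of the 31 members by symbol. The 250 bases upstream of the start follow for the pathway's entry enzyme Hmgcs1 (chr13:119690101-119690350, plus strand) and for 4 enzymes called with siRNA 2, of which Idi1 (chr13:8885356-8885605, plus strand), Cyp51 (chr5:4104698-4104947, minus strand) and Msmo1 (chr8:64733579-64733828, minus strand) fell and Dhcr7 (chr7:143822917-143823166, plus strand) rose. They are written 5′ to 3′, with CCAAT or its reverse complement ATTGG, and the 1 match to TCACNCCAC in Hmgcs1, in capitals.

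Hmgcs1: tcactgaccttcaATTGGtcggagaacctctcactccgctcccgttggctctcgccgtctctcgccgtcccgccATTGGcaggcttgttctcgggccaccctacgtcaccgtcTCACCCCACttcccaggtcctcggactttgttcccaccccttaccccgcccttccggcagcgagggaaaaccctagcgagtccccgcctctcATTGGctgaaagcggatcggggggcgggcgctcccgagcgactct
Idi1: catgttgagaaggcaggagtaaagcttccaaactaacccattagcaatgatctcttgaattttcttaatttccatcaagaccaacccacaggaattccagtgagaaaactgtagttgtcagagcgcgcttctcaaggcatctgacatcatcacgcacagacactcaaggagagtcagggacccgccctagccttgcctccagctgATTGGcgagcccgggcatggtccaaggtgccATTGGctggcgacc
Cyp51: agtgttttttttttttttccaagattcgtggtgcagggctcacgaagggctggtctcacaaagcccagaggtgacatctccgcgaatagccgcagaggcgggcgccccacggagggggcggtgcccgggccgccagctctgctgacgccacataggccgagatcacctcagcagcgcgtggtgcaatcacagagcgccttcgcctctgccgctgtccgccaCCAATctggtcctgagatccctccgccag
Msmo1: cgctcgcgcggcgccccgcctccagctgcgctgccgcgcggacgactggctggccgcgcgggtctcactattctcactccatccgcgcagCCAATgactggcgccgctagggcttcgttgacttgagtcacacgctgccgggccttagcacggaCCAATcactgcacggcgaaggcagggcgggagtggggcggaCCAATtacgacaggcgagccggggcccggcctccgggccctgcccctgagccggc
Dhcr7: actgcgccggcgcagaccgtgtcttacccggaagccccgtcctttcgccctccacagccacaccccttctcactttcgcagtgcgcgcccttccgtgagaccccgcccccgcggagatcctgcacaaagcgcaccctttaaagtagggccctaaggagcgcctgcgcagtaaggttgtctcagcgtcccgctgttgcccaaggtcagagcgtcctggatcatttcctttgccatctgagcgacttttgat

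These stretches held 3 CCAAT matches in Hmgcs1, 2 in Idi1, 1 in Cyp51, 3 in Msmo1 and 0 in Dhcr7, counted on both strands. Dhcr7 has 3 annotated windows, of which the first is shown, and another of them holds CCAAT. Over the whole windows, CCAAT was found in 20 of 25 members (80%) and in 41.1% of the 27025 genes with a window. The E-box CACGTG was found in 6 of 25 members (24%) and in 8.09% of all genes. The classical sterol regulatory element in its strict spelling was in 0 of 25 members and in 0.0999% of all genes, and the looser TCACNCCAC was in 1 member, Hmgcs1, and in 1.44% of all genes. The CACGTG and CCAAT spellings do not overlap each other, whereas TCACNCCAC takes in every match of the strict element. These are matches of letters in a short window, and no binding was measured.

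In control cells the pathway was well expressed. On the deposited TPM scale, which is per length and so lets genes be set side by side, the median of the 31 genes was 75.6 TPM, against 25.7 TPM over the 11800 genes with enough counts to be tested, and 25 of the 31 lay above that second value. The highest level was that of Scd2, a desaturase that puts the double bond into stearate, at 573 ± 66.9 TPM (SD, n = 3). Next came Fdps, which makes farnesyl diphosphate, at 454 ± 27.2 TPM (SD, n = 3) and Msmo1, an oxidase in the removal of methyl groups from the sterol nucleus, at 276 ± 29.4 TPM (SD, n = 3).

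Among the mevalonate enzymes, Hmgcs1 (205 ± 20.1 TPM, SD, n = 3) stood above the mevalonate kinase Mvk (73.6 ± 7.92) and the phosphomevalonate kinase Pmvk (64.6 ± 2.15). Among the enzymes after squalene the levels ran from Msmo1 down to the sterol dehydrogenase and reductase Hsd17b7, at 11.7 ± 1.66 TPM (SD, n = 3), with the squalene epoxidase Sqle at 158 ± 10.3 and the lanosterol demethylase Cyp51 at 141 ± 14.3. Of the paired genes, Srebf2, the factor tied most to sterol synthesis, was at 218 ± 46.2 TPM and Srebf1 at 75.6 ± 10.9, Insig1 at 188 ± 10 and Insig2 at 32.2 ± 1.73, and Scd2 at 573 against 55 ± 4.38 for Scd1. The ranges of the 3 control libraries did not overlap within any of these pairs. The Scd1 and Scd2 sequences are close copies, so reads may have been shared between them. The lowest was Abca1, the exporter that loads cellular cholesterol onto lipoprotein, at 0.124 ± 0.0579 TPM (SD, n = 3). Only 0.0593% of tested genes, Abca1 included, lay at or below that level.

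Agreement between the control libraries differed widely by gene. The coefficient of variation of CPM was 0.963% for Sqle and under 5% for Sc5d, Scd1, Dhcr7, Insig1, Lpin1 and Mvd. It reached 20.1% for Fasn, 20.2% for Lss and 23.7% for Acaca, which were lowest in the first control library, and 44.8% for Abca1, which had 5, 4 and 10 counts.

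**Figure D1:**
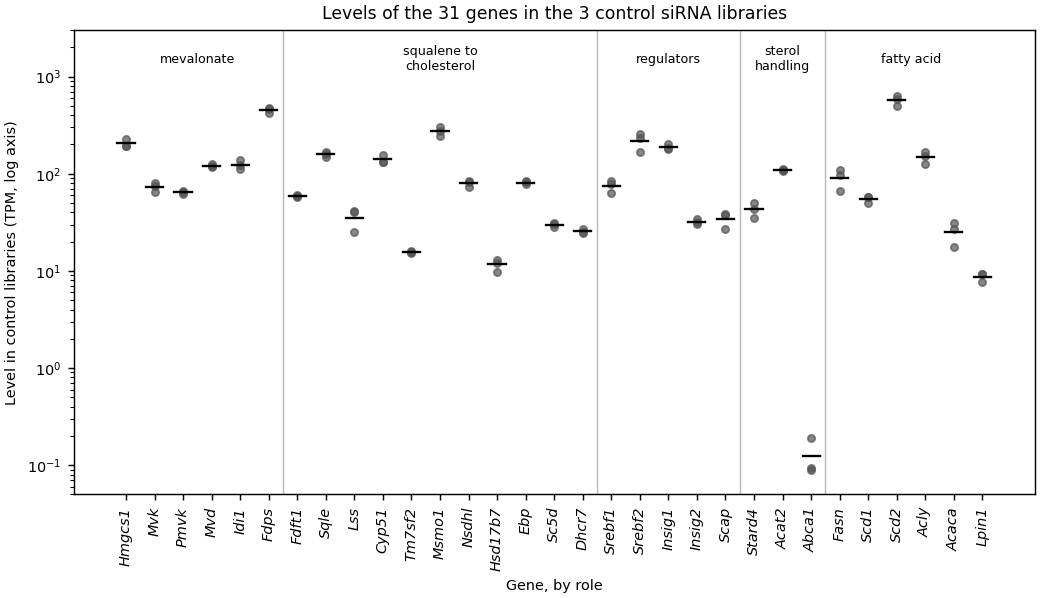
Level of each of the 31 genes in the 3 control siRNA libraries as deposited TPM on a log axis, with genes grouped by role. Dots are libraries and bars their mean. Scd2 and Fdps are highest at 573 and 454 TPM, and Abca1 lies far below the rest at 0.124 TPM.

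After knockdown of Usp40, few of the 31 genes passed edgeR's main test in any comparison. In that test their share was no higher than that of all genes. With siRNA 2, 5 of the 31 genes passed edgeR's quasi-likelihood test at an adjusted p under 0.05, against 16.2% of all genes tested. Idi1, Fdps, Cyp51 and Msmo1 fell and Dhcr7 rose, where 8.4% of all genes fell and 7.81% rose. The share of members called, 16.1%, was close to that of all genes, and the count was 2 without control replicate 1 or 2, siRNA 1 replicate 3 or siRNA 2 replicate 1 or 2, and 1 without siRNA 2 replicate 3. Over all genes the calls in those runs were 1417, 1001, 1366, 862, 947 and 636, in the same order, against 1913 with all libraries. With siRNA 1, 0 of the 31 genes were called by edgeR, against 1.65% of all genes. In that comparison DESeq2 called 1 member, Msmo1, against 271 of the 11800 genes tested. An unadjusted edgeR p under 0.05 was held by 6 members and by 1608 of the 11800 genes.

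In the average of both siRNAs against control, 1 member was called, Msmo1, against 7.32% of all genes, with 0 members called without control replicate 2, 4 without control replicate 3 and 2 without siRNA 1 replicate 1. The calls over all genes in those runs were 174, 1478 and 817, against 864. In the direct comparison of the siRNAs, edgeR called 0 members, against 6.74% of all genes. DESeq2 called 1 member there, Idi1, against 882 of the 11800 genes tested. An unadjusted edgeR p under 0.05 was held by 4 members and by 2564 of the 11800 genes. By range alone, all libraries of siRNA 1 lay outside the control range for 6 of 31 members, 2 higher and 4 lower, against 16.6% of all genes. With siRNA 2 this held for 13 of 31 members, 5 higher and 8 lower, against 38.6% of all genes. The 5 higher include Abca1, which passed the filter on low counts only through the siRNA 2 libraries. The siRNA comparisons share the same 3 control libraries, so what they have in common is not independent.

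**Figure D2:**
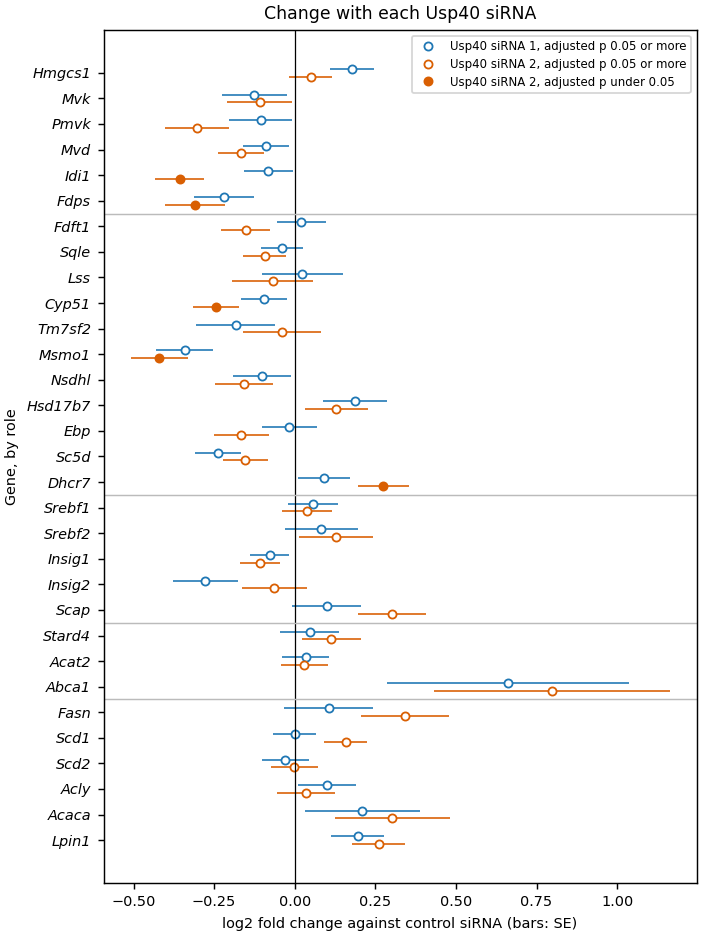
log2 fold change against control siRNA for each gene with siRNA 1 and siRNA 2, with the SE as bars and genes grouped by role. Filled points passed edgeR's test at an adjusted p under 0.05. The 5 filled points, all with siRNA 2, are Idi1, Fdps, Cyp51, Msmo1 and Dhcr7.

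In the mevalonate arm, 2 of 6 enzymes fell with siRNA 2 and 5 of 6 fold changes were below 0, with a median log2 fold change of -0.235 against -0.00551 over all genes tested, of which 6015 of 11800 were below 0 and 8.4% fell. Idi1 (ENSMUSG00000058258, GRCm39 chromosome 13, 8935537 to 8942487, plus strand) encodes the isomerase that makes dimethylallyl diphosphate. Its level was 171, 171 and 143 CPM in control, 160, 149 and 149 CPM with siRNA 1, and 127, 126 and 126 CPM with siRNA 2. Every siRNA 2 library lay below every library of the other groups, while siRNA 1 overlapped the control range. Idi1 fell to 78.1% of control with siRNA 2 (edgeR adjusted p = 0.0109, log2 fold change -0.36 with SE 0.0769) and its log2 fold change with siRNA 1 was -0.08 (SE 0.0766, edgeR adjusted p = 0.685). The siRNAs differed in Idi1 by 0.275 on the log2 scale, siRNA 1 higher, which missed the threshold in the main test (SE 0.0769, edgeR adjusted p = 0.054) and passed it in DESeq2 (adjusted p = 0.0241), with only the siRNA groups fitted (edgeR adjusted p = 0.00908), without control replicate 1 (0.0211) and without control replicate 3 (0.0181). The call of Idi1 with siRNA 2 was lost without siRNA 2 replicate 3 (edgeR adjusted p = 0.0543) and kept without any other library, control replicate 1 included (log2 fold change -0.32, edgeR adjusted p = 0.0179).

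Fdps (ENSMUSG00000059743, chromosome 3, 89000895 to 89009266, minus strand), which joins isoprene units to farnesyl diphosphate, had 375, 338 and 311 CPM in control, 322, 259 and 298 CPM with siRNA 1 and 289, 275 and 263 CPM with siRNA 2. The siRNA 2 libraries were all below the control range, and 1 of the siRNA 1 libraries lay inside it. Fdps fell to 80.7% of control with siRNA 2 (edgeR adjusted p = 0.0416, log2 fold change -0.31 with SE 0.0925), and was at 85.9% with siRNA 1 (edgeR adjusted p = 0.319, log2 fold change -0.22 with SE 0.0925). That call was lost when any 1 of 6 libraries was left out: control replicates 1 and 2 (edgeR adjusted p = 0.0902 and 0.0917), siRNA 1 replicate 3 (0.0672) and siRNA 2 replicates 1, 2 and 3 (0.0826, 0.105 and 0.16). The Fdps locus holds the predicted gene Gm43738 on the same strand, with 49 counts in all against 32066 for Fdps.

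Hmgcs1 (ENSMUSG00000093930, chromosome 13, 120151915 to 120169796, plus strand), which makes HMG-CoA at the entry of the pathway, was not lower with either siRNA. It had 318, 337 and 294 CPM in control, 364, 356 and 354 CPM with siRNA 1 and 328, 321 and 333 CPM with siRNA 2. All siRNA 1 libraries lay above all control libraries, and all siRNA 2 libraries lay inside the control range. Neither change passed the test, with log2 fold changes of 0.18 for siRNA 1 (SE 0.0672, edgeR adjusted p = 0.266) and 0.05 for siRNA 2 (SE 0.0672, edgeR adjusted p = 0.631). The latter turned to -0.0032 without control replicate 3. The kinases Mvk and Pmvk and the decarboxylase Mvd had log2 fold changes of -0.11, -0.30 and -0.17 with siRNA 2 (edgeR adjusted p = 0.469, 0.0563 and 0.129) and of -0.125, -0.11 and -0.09 with siRNA 1 (edgeR adjusted p = 0.635, 0.685 and 0.633).

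From squalene to cholesterol, 2 of 11 enzymes fell and 1 rose with siRNA 2, and 9 of 11 fold changes were below 0, with a median of -0.15 on the log2 scale. Of all genes tested 8.4% fell, 7.81% rose and 6015 of 11800 were below 0. Msmo1 (ENSMUSG00000031604, chromosome 8, 65171173 to 65186826, minus strand) had 296, 294 and 243 CPM in control, 230, 200 and 226 CPM with siRNA 1 and 206, 219 and 198 CPM with siRNA 2. All 6 libraries with a Usp40 siRNA lay below all 3 control libraries. Msmo1 fell to 74.8% of control with siRNA 2 (edgeR adjusted p = 0.0103, log2 fold change -0.42 with SE 0.0892) and to 76.8% in the average of both siRNAs (edgeR adjusted p = 0.0137, log2 fold change -0.38 with SE 0.0761). With siRNA 1 it was at 78.9% and missed the threshold (edgeR adjusted p = 0.0999, log2 fold change -0.34 with SE 0.0891), but it passed in DESeq2 (adjusted p = 0.0181) and in edgeR without control replicate 3 (adjusted p = 0.025). The difference between the siRNAs was 0.08 on the log2 scale (SE 0.0893, edgeR adjusted p = 0.649).

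The call of Msmo1 with siRNA 2 was lost without siRNA 2 replicate 3 (edgeR adjusted p = 0.0608), and that in the average was lost without control replicate 2 (edgeR adjusted p = 0.0844). Both were kept without control replicate 1, with log2 fold changes of -0.37 (edgeR adjusted p = 0.0146) and -0.33 (edgeR adjusted p = 0.0247). The authors' deposited table gives Msmo1 an adjusted p of 0.0437 with siRNA 1 and 0.00151 with siRNA 2. In the authors' deposited table, members under 0.05 were 1 with siRNA 1 (Msmo1) and 4 with siRNA 2 (Pmvk, Idi1, Fdps and Msmo1).

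Cyp51 (ENSMUSG00000001467, chromosome 5, 4131145 to 4154746, minus strand), the demethylase that acts on lanosterol ahead of Msmo1, had 234, 250 and 217 CPM in control, 219, 212 and 224 CPM with siRNA 1 and 210, 193 and 189 CPM with siRNA 2. The siRNA 2 libraries were all below the control range, and siRNA 1 overlapped it. Cyp51 fell to 84.4% of control with siRNA 2 (edgeR adjusted p = 0.0395, log2 fold change -0.245 with SE 0.072) and was at 93.6% with siRNA 1 (edgeR adjusted p = 0.606, log2 fold change -0.10 with SE 0.0719). Its call with siRNA 2 was lost with only the groups compared in the fit (edgeR adjusted p = 0.0589) and without any 1 of 6 libraries: control replicates 1 and 2 (0.0502 and 0.118), siRNA 1 replicate 3 (0.0632) and siRNA 2 replicates 1, 2 and 3 (0.0572, 0.119 and 0.162). Cyp51 shares 166 bp with Akap9, which runs on the other strand, and it is not stated if reads were counted by strand.

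Dhcr7 (ENSMUSG00000058454, chromosome 7, 143376882 to 143402147, plus strand), the reductase of the last step to cholesterol, was the only member called higher. Its level was 38.3, 38.3 and 36.2 CPM in control, 42, 38.1 and 39.9 CPM with siRNA 1 and 48.2, 46.7 and 41.7 CPM with siRNA 2. All siRNA 2 libraries lay above the control range, and siRNA 1 reached into it. Dhcr7 rose to 121% of control with siRNA 2 (edgeR adjusted p = 0.0369, log2 fold change 0.27 with SE 0.0791), and was at 106% with siRNA 1 (edgeR adjusted p = 0.663, log2 fold change 0.09 with SE 0.0798). The call was lost with no filter on low counts (edgeR adjusted p = 0.0514), with only the groups compared (0.054), and without control replicate 1, 2 or 3 (0.0508, 0.0753 and 0.0699), siRNA 1 replicate 3 (0.0594) or siRNA 2 replicate 1 or 2 (0.131 and 0.111).

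Sqle, a rate-limiting enzyme of the sterol branch, had 183, 186 and 184 CPM in control, 174, 184 and 180 CPM with siRNA 1 and 186, 164 and 168 CPM with siRNA 2. The groups overlapped, and its log2 fold changes were -0.04 and -0.09 (SE 0.0658 for each, edgeR adjusted p = 0.83 and 0.337). The squalene synthase Fdft1 and the desaturase Sc5d were lower than control in all siRNA 2 libraries, with log2 fold changes of -0.15 for each (edgeR adjusted p = 0.182 and 0.152). Sc5d was also below control in all siRNA 1 libraries (log2 fold change -0.24, edgeR adjusted p = 0.158). The lanosterol synthase Lss, the reductase Tm7sf2, the dehydrogenase Nsdhl, the isomerase Ebp and Hsd17b7 overlapped the control range with both siRNAs, with log2 fold changes between -0.17 (Ebp) and 0.13 (Hsd17b7) with siRNA 2. Fdft1 overlaps Ctsb on the opposite strand by 774 bp and Tm7sf2 overlaps Vps51 on the same strand by 532 bp, so their counts may include reads of those genes.

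**Figure D3:**
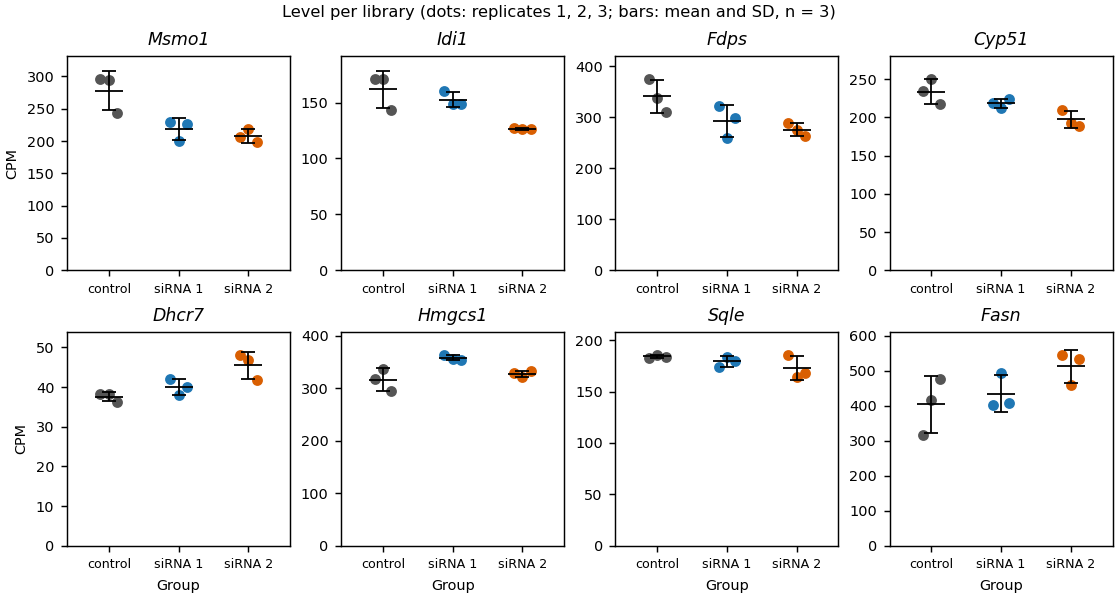
Level in CPM of 8 genes in each library of the control siRNA, siRNA 1 and siRNA 2 groups; dots are replicates 1, 2 and 3 from left to right and bars the mean and SD (n = 3). Msmo1 was lower in all 6 libraries with a Usp40 siRNA than in any control, and Idi1, Fdps and Cyp51 were below control in the siRNA 2 libraries.

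Over the 17 enzymes of cholesterol synthesis together, the summed level was 2236, 2208 and 2053 CPM in control, 2121, 1965 and 2061 CPM with siRNA 1 and 1956, 1894 and 1879 CPM with siRNA 2. The siRNA 2 sums lay below all control sums by a small margin, and the siRNA 1 sums overlapped them. The fold change was below 0 for 14 of 17 with siRNA 2 (median log2 -0.15) and for 12 of 17 with siRNA 1 (median -0.09), while the medians over all genes were -0.00551 and 0.0055. Without control replicate 1 it was below 0 for 13 of 17 with siRNA 2 (median -0.15). With siRNA 1 the median was -0.0572 without control replicate 1 and -0.0409 without siRNA 1 replicate 2, with 12 of 17 below 0 in both. The thiolase Acat2, grouped with sterol handling, is not among the 17, and its log2 fold change was 0.03 with each siRNA. In these bulk libraries fewer cells with active synthesis and less RNA per cell cannot be told apart.

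The regulators gave 0 calls of 5 with either siRNA in edgeR. Among them, Insig2 with siRNA 1 and Scap with siRNA 2 had an unadjusted edgeR p under 0.05. Over all 11800 genes tested, 1608 and 3978 had one. DESeq2 called 0 of the 5 regulators. Srebf2 had 393, 496 and 552 CPM in control, 477, 555 and 493 CPM with siRNA 1 and 563, 485 and 526 CPM with siRNA 2, and Srebf1 had 127, 152 and 143, then 148, 146 and 145, then 156, 138 and 141 CPM. For both factors the groups overlapped, and the control range was as wide as any shift. The log2 fold changes of Srebf2 were 0.08 and 0.13 (SE 0.114 for each, edgeR adjusted p = 0.795 and 0.45) and those of Srebf1 were 0.06 and 0.04 (SE 0.0776 for each, edgeR adjusted p = 0.798 and 0.756). Without control replicate 1 they turned to -0.05 and -0.0003 for Srebf2 and to -0.01 and -0.03 for Srebf1.

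Insig1 encodes an anchor of SCAP and is itself an SREBP target. It had 220, 218 and 207 CPM in control, 206, 202 and 202 CPM with siRNA 1 and 208, 197 and 194 CPM with siRNA 2. The siRNA 1 libraries lay just below the control range and the siRNA 2 libraries touched it, with log2 fold changes of -0.08 and -0.11 (SE 0.0615 for each, edgeR adjusted p = 0.625 and 0.242). Insig2 was below control in all siRNA 1 libraries (edgeR adjusted p = 0.256, log2 fold change -0.28 with SE 0.102) but not with siRNA 2 (-0.06, edgeR adjusted p = 0.686). Scap, the escort of the SREBPs, had 56, 72.9 and 71.8 CPM in control and 82, 81.1 and 84.3 CPM with siRNA 2, above every control library (edgeR adjusted p = 0.0708, log2 fold change 0.30 with SE 0.106), while siRNA 1 overlapped control (0.10, edgeR adjusted p = 0.727). Srebf1 overlaps Rai1 on the opposite strand by 109 bp.

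No gene of fatty acid synthesis and use was called with either siRNA in edgeR or DESeq2. An unadjusted edgeR p under 0.05 was held by 3 of 6 with siRNA 2 and 1 with siRNA 1. Over all 11800 genes tested, 3978 and 1608 held one. With siRNA 2, 5 of 6 fold changes were above 0, with a median of 0.21 on the log2 scale, and 4 of 6 were above 0 without control replicate 1, with a median of 0.13. Fasn, the synthase that builds palmitate, had 317, 417 and 477 CPM in control, 401, 494 and 407 CPM with siRNA 1 and 546, 458 and 533 CPM with siRNA 2. Its groups overlapped through the third control library, and the first control library was the lowest of all 9. The log2 fold change of Fasn with siRNA 2 was 0.34 (SE 0.137, edgeR adjusted p = 0.105), which was 0.19 without control replicate 1 (edgeR adjusted p = 0.256) and 0.48 and called without control replicate 3 (edgeR adjusted p = 0.0276). With siRNA 1 it was 0.105 (SE 0.137, edgeR adjusted p = 0.782), and -0.05 without control replicate 1.

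Scd1 had 110, 114 and 116 CPM in control, 121, 110 and 109 CPM with siRNA 1 and 131, 122 and 127 CPM with siRNA 2. The siRNA 2 libraries lay above the control range, yet the log2 fold change of 0.16 did not pass (SE 0.0675, edgeR adjusted p = 0.123), and with siRNA 1 it was -0.00056 (SE 0.0677, edgeR adjusted p = 0.998). Scd2, the main desaturase of these cells, had 1235, 1398 and 1324 CPM in control, 1260, 1351 and 1266 CPM with siRNA 1 and 1371, 1265 and 1318 CPM with siRNA 2. Its groups overlapped throughout, with log2 fold changes of -0.03 and -0.0014 (SE 0.0725 and 0.0724, edgeR adjusted p = 0.891 and 0.991). The citrate lyase Acly and the carboxylase Acaca, which feed Fasn with acetyl-CoA and malonyl-CoA, had log2 fold changes of 0.03 and 0.30 with siRNA 2 (edgeR adjusted p = 0.808 and 0.253). Lpin1, a phosphatidate phosphatase, lay above control in all 6 libraries with a Usp40 siRNA, with log2 fold changes of 0.195 for siRNA 1 and 0.26 for siRNA 2 (edgeR adjusted p = 0.327 and 0.0509).

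In sterol handling, 0 of 3 genes were called with either siRNA in edgeR or DESeq2. Abca1 passed the filter on low counts through the siRNA 2 libraries, since its level reached the minimum of 0.841 CPM in 0 control, 1 siRNA 1 and 3 siRNA 2 libraries, so its differences are given as a description. It had 5, 4 and 10 counts in control, 9, 12 and 9 with siRNA 1 and 10, 13 and 12 with siRNA 2, or 0.537 ± 0.241, 0.871 ± 0.176 and 0.961 ± 0.0851 CPM (SD, n = 3). All siRNA 2 libraries lay above control in CPM, on very few counts, and the log2 fold changes of Abca1 were 0.66 and 0.80. Stard4, a carrier of sterol between membranes, and Acat2, a thiolase that joins acetyl-CoA units, overlapped control with both siRNAs, with log2 fold changes between 0.03 and 0.11.

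**Figure D4:**
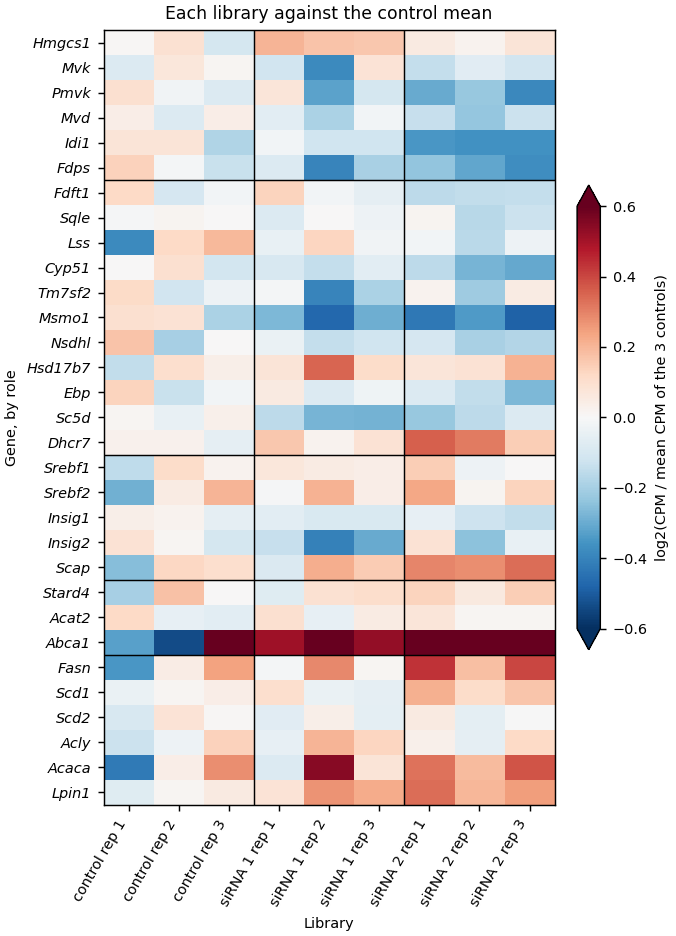
Each library against the mean of the 3 control libraries, as log2 of the CPM ratio, for the 31 genes grouped by role. The colour scale ends at its limits, which Abca1 passes. Msmo1 is blue in all 6 libraries with a Usp40 siRNA, and control replicate 1 is blue for the long genes Fasn, Acaca, Lss and Scap.

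Gene length moved with the direction of change. The enzymes of cholesterol synthesis were short, with a median exonic length of 2974 bp, and the fatty acid genes long, at 6546.5 bp, against 3801 bp over all genes tested. Across the 31 genes Spearman's rho between log2 fold change and length was 0.752 with siRNA 2 and 0.7 with siRNA 1, and across the 11800 genes tested it was 0.384 and 0.255. These are descriptions across genes, which share the same 9 libraries and are not independent replicates. Abca1, which passed the filter on low counts only through the siRNA 2 libraries, is among the 31 and among the 12 longer members below. Of the 12 members of at least 5000 bp, 9 were above 0 with siRNA 2 and control replicate 1 was the lowest control in 10. Of the 19 shorter members, 5 were above 0 with siRNA 2 and control replicate 1 was the highest control in 11. The trend with length was not confined to that library. Per doubling of length, log2 level moved by 0.0604, 0.024 and 0.0943 in the siRNA 2 libraries, against -0.0131 and 0.0172 in control replicates 2 and 3. In the siRNA 1 libraries it moved by -0.0757, 0.0899 and -0.034.

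When the trend of each library with gene length was taken out before the test, the correlation across all genes went to 0.0179 with siRNA 2, and that across the 31 genes to 0.507. Idi1, Cyp51, Msmo1 and Fdps still fell with siRNA 2 (log2 fold changes -0.34, -0.28, -0.36 and -0.20, edgeR adjusted p = 0.00351, 0.00915, 0.00261 and 0.029), Dhcr7 still rose (0.27, edgeR adjusted p = 0.0209), and Sc5d was called as lower (-0.22, edgeR adjusted p = 0.0451). Msmo1 was then also called with siRNA 1 (log2 fold change -0.32, edgeR adjusted p = 0.0184), and Idi1 was called as higher with siRNA 1 than with siRNA 2 (difference 0.26, edgeR adjusted p = 0.0244). The average of both siRNAs then called 5 members, Idi1, Fdps, Cyp51, Msmo1 and Sc5d, all lower. Calls over all genes also rose in this fit, from 1913 to 2359 with siRNA 2, from 195 to 371 with siRNA 1, from 864 to 1472 in the average and from 795 to 1217 between the siRNAs. The fold changes of Fasn and Acaca with siRNA 2 shrank to 0.15 and 0.12 on the log2 scale (edgeR adjusted p = 0.17 and 0.434). Over the 17 cholesterol enzymes the median with siRNA 2 was then -0.08, with 13 below 0, and over the 6 fatty acid genes it was 0.105, with 4 above 0.

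**Figure D5:**
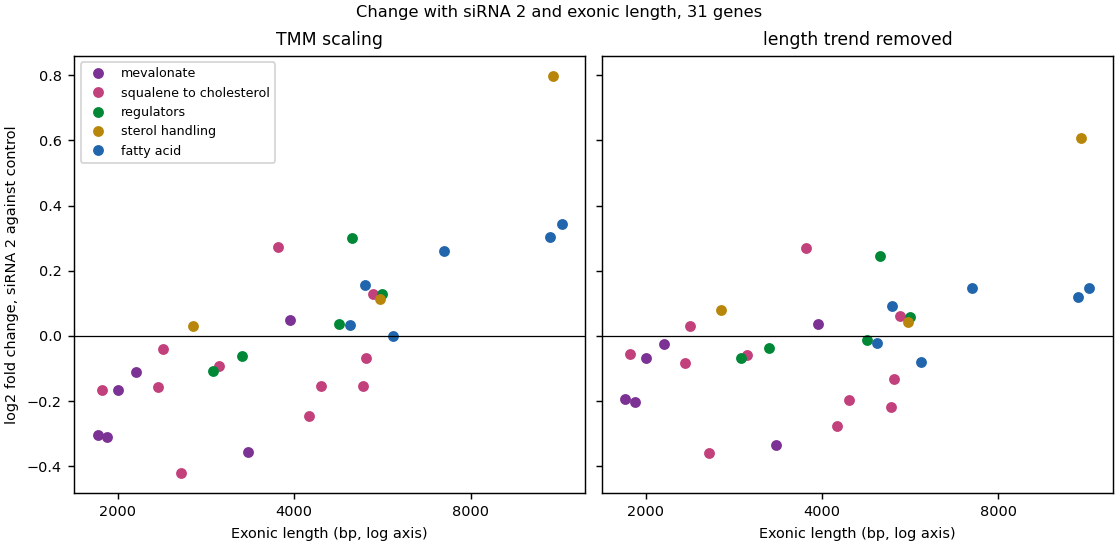
log2 fold change with siRNA 2 against exonic length in bp (log axis) for the 31 genes, coloured by role, with TMM scaling on the left and with each library's trend with length removed on the right. Spearman's rho is 0.752 on the left and 0.507 on the right.

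Other genes of lipid metabolism, from 8 lists of related function, were read beside the members. Of 105 listed genes 100 could be tested, and 16 were called with siRNA 2 (16.2% of all genes), 3 with siRNA 1 (1.65% of all genes), 7 in the average (7.32%) and 9 between the siRNAs (6.74%). In cholesterol storage and transport 2 of 15 tested genes were called with siRNA 1 and 4 with siRNA 2. Osbp, an oxysterol-binding protein that exchanges cholesterol between the endoplasmic reticulum and the Golgi, had 90.7, 105 and 98.8 CPM in control, 138, 155 and 151 CPM with siRNA 1 and 152, 148 and 149 CPM with siRNA 2. The groups were well apart, and Osbp rose with both siRNAs (log2 fold changes 0.59 and 0.61, SE 0.0727 for each, edgeR adjusted p = 0.00233 and 0.000331). Both calls of Osbp were kept in every alternative run, leaving out each library included.

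Cav1, a coat protein of caveolae that binds cholesterol, had 120, 108 and 116 CPM in control, 95.2, 88.1 and 89.7 CPM with siRNA 1 and 89.4, 92.5 and 91.3 CPM with siRNA 2. It fell with both siRNAs by about the same amount (log2 fold change -0.33 for each, SE 0.0677 and 0.0676, edgeR adjusted p = 0.0306 and 0.00849). The siRNA 2 call of Cav1 was kept in every alternative run, but the siRNA 1 call was lost with only the groups compared (edgeR adjusted p = 0.161) and without any library but control replicate 1 (0.0503 to 0.156, the highest without siRNA 1 replicate 3). With siRNA 2 the lipoprotein receptor Lrp1 rose (52.2, 77.6 and 86.6 CPM in control and 172, 125 and 150 CPM with siRNA 2; edgeR adjusted p = 0.00516, log2 fold change 1.05 with SE 0.19) and Soat1, which esterifies cholesterol for storage, fell (-0.30, SE 0.0846, edgeR adjusted p = 0.0347). The receptors and targets of LXR, the sensor of oxysterols that drives Abca1, gave 0 calls of 6 tested with either siRNA in edgeR and in DESeq2. Of these, 1 had an unadjusted edgeR p under 0.05 with siRNA 2, against 3978 of all 11800 genes tested.

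Among 14 genes of SREBP processing and sterol enzyme turnover, 0 were called with siRNA 1. An unadjusted edgeR p under 0.05 was held by 2 of them, against 1608 of all 11800 genes tested. With siRNA 2, Erlin1 and the ubiquitin ligase Marchf6 rose (log2 fold changes 0.23 and 0.30, edgeR adjusted p = 0.043 and 0.0395). The ligase Syvn1, which shares 91 bp with Mrpl49 on the other strand, fell with siRNA 2 (-0.25, edgeR adjusted p = 0.0318). Of 12 genes of the isoprenoid branches, Nus1, a subunit of the dolichol-making transferase, fell with siRNA 2 (edgeR adjusted p = 0.000373, log2 fold change -0.55 with SE 0.0663), as did Coq2 of ubiquinone synthesis (edgeR adjusted p = 0.00271, log2 fold change -0.41 with SE 0.0686). Nus1 had 127, 139 and 126 CPM in control, 132, 125 and 133 CPM with siRNA 1 and 91.5, 87.7 and 89.3 CPM with siRNA 2, so siRNA 1 overlapped control and siRNA 2 lay well below both. Of 9 other sterol enzymes and cofactors tested, Lbr, a sterol reductase and lamin receptor, and Cyb5b, an electron carrier, fell with siRNA 2 (-0.41 and -0.23, edgeR adjusted p = 0.00158 and 0.0464).

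Of 18 genes of fatty acid elongation, desaturation and activation, Acsl4, which activates long polyunsaturated fatty acids, fell with both siRNAs. It had 142, 139 and 132 CPM in control, 114, 105 and 100 CPM with siRNA 1 and 100, 105 and 105 CPM with siRNA 2 (log2 fold changes -0.38 and -0.41, SE 0.0681 for each, edgeR adjusted p = 0.0181 and 0.00259). All libraries with a Usp40 siRNA lay below control for Acsl4, and its siRNA 1 call was lost with only the groups compared (edgeR adjusted p = 0.109) and without control replicate 2 (0.08) or siRNA 1 replicate 2 or 3 (0.0697 and 0.119). The synthetase Acsl3 fell with siRNA 2 (-0.28, edgeR adjusted p = 0.0336), and its log2 fold change with siRNA 1 was -0.16 (edgeR adjusted p = 0.414). The Acsl3 locus holds Utp14b on the same strand over 13475 bp, with 707 counts against 4994 for Acsl3. Of 12 genes that supply acetyl-CoA, malonyl-CoA and NADPH, Pgd of the pentose phosphate pathway and the malic enzyme Me1 fell with siRNA 2 (-0.36 and -0.23, edgeR adjusted p = 0.00896 and 0.0464), and of 14 glycerolipid genes Mgll, which cleaves monoacylglycerol, rose (0.58, SE 0.0841, edgeR adjusted p = 0.00123).

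With siRNA 2 the calls of Nus1, Coq2, Lbr, Osbp, Cav1, Lrp1, Acsl4 and Mgll were kept when each library was left out in turn. Those of Erlin1, Marchf6, Syvn1, Cyb5b, Soat1, Acsl3, Me1 and Pgd were each lost without siRNA 2 replicate 3 (edgeR adjusted p = 0.183, 0.148, 0.117, 0.134, 0.143, 0.149, 0.16 and 0.0514), which was the highest value for each of these genes, and all of them but Pgd were also lost without at least 1 other library.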

How the data were processed

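RNA from 9 libraries, 3 per group, was measured by poly(A)-selected, strand-specific RNA-seq. Per the labels' protocols, 1250 ng of RNA, 12 PCR cycles and paired reads of 36 bp were used, all in batch 1. Per the submitters' processing notes and the labels, CLC Genomics Workbench 23.02, DESeq2 and the mouse build GRCm39 were used; the annotation release and the use of strand in counting are not stated.

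Per the file headers, the authors deposited total gene counts, RPKM and TPM for every library. The authors also deposited a signal column per library, their own scaled CPM, which was only inspected. The deposited comparisons hold a log2 fold change of control over siRNA and p-values with adjusted forms. In the siRNA 1 comparison 3530 genes, none of them a member, hold an adjusted p of 0 as a filler.

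The depth was 9786270 to 13675426 counts per library, and 9483 of 25655 genes had no count. Replicates differed by more than sampling noise (chi-square per degree of freedom 3.18 to 18.4). Genes low in counts were removed with filterByExpr (13855 removed, 11800 tested, all 31 members among them). Counts were scaled by TMM and tested with edgeR 4.0.16 (quasi-likelihood, robust, R 4.3.3) on all 9 libraries, with no term besides group. Benjamini-Hochberg adjustment of p-values ran over all genes tested in a contrast, and a gene was called under 0.05. CPM uses the TMM-scaled library size, the biological coefficient of variation was 8.56%, and the SE of a log2 fold change comes from its F value. Exonic length was derived from the deposited counts and RPKM. Reads without molecular identifiers are not independent molecules.

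Alternatives were RLE size factors, no filter, DESeq2 1.42.0, only the groups compared, replicate number as a block, each library's loess trend with length removed (span 0.3), both of the latter together, and leaving out each library. The members, related lists and markers were chosen with earlier results of these data known. Full values are given for members called in any contrast and for Hmgcs1, Sqle, Msmo1, Srebf1, Srebf2, Insig1, Fasn, Scd1, Scd2 and Abca1; related genes are named where called, at most 6 per list by size of change. The results of some single genes are left out here.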

Additional observations from a re-analysis of the deposited data

Results flagged for a closer look

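None of the 31 members differed between the siRNAs at an adjusted p under 0.05, but 9 related genes did, by edgeR's test of siRNA 1 against siRNA 2. The log2 difference, siRNA 1 minus siRNA 2, was 0.542 for Nus1 (edgeR adjusted p = 0.000476), 0.575 for Pgd (0.000659), 0.407 for G6pdx, the entry enzyme of the pentose phosphate pathway (0.00561), and -0.742 for Mgll (0.000324). These 4 differences stayed past the threshold when each library was left out. It was -0.277 for Erlin1 (edgeR adjusted p = 0.0337), 0.273 for Coq2 (0.0341), 0.274 for Lbr (0.0225), -0.758 for Lrp1 (0.0341) and 0.29 for Me1 (0.0281). Each of these 5 passed the threshold no longer without siRNA 1 replicate 3 (edgeR adjusted p = 0.167, 0.133, 0.103, 0.14 and 0.114) or siRNA 2 replicate 3 (0.176, 0.153, 0.0984, 0.114 and 0.128), and without other libraries of these groups. Lrp1 and Coq2 also missed it with no filter on low counts (edgeR adjusted p = 0.117 and 0.0596) and with the replicate block (0.108 and 0.0509). G6pdx had 171, 161 and 183 CPM in control, 186, 212 and 200 CPM with siRNA 1 and 145, 155 and 151 CPM with siRNA 2. It thus lay on opposite sides of control with the siRNAs, with neither side past the threshold (edgeR adjusted p = 0.207 and 0.0968). G6pdx overlaps Ikbkg on the opposite strand by 19712 bp, with 4739 counts against 18425 for G6pdx. Pgd had 199, 210 and 208 CPM in control, 220, 236 and 261 CPM with siRNA 1 and 156, 167 and 158 CPM with siRNA 2.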

How the results depend on the processing

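The count of 5 members called with siRNA 2 was 4 to 7 under the settings that kept all replicates and 1 to 7 without each library. The 0 members with siRNA 1 became 1 (Msmo1) in DESeq2 and with the length trend removed, alone or with the replicate block, and 0 to 1 without each library. The 1 member of the average became 2 with no filter, 3 in DESeq2, 5 with the length trend removed, alone or with the block, and 0 to 4 without each library. The 0 members between the siRNAs became 1 (Idi1) in DESeq2, with only the groups compared, with the replicate block and with the length trend removed, alone or with the block, and 0 to 1 without each library. The labels do not say if the replicate numbers pair the samples. Correlations of same-numbered deviations ran from -0.138 to 0.427 and of differently numbered ones from -0.429 to 0.378. These ranges overlap, so the correlations cannot decide it. With the replicate block siRNA 2 called 7 members, siRNA 1 called 0 and the average 2. Over all genes the block gave 2295, 226, 1092 and, between the siRNAs, 927 calls, against 1913, 195, 864 and 795 in the main fit. DESeq2 gave 1995, 271 and 1131 of the 11800 genes for siRNA 2, siRNA 1 and the average, and no filter gave 885 in the average. Calls over all genes moved from 195 to 371 with siRNA 1, from 864 to 1472 in the average and from 795 to 1217 between the siRNAs with the length trend removed (474, 1806 and 1487 with the block added), and with only the groups compared to 37 with siRNA 1 and 1284 between the siRNAs. Without each library they ran from 36 to 234, 636 to 2608, 174 to 1478 and 361 to 1335 for siRNA 1, siRNA 2, the average and the siRNAs against each other. The cause of the changes in counts was not tested.

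Over both siRNAs, called genes of other sterol enzymes went from 2 to 1 with no filter or only the groups compared (1 to 2 without each library), and those of acetyl-CoA and NADPH supply likewise to 1 (0 to 2). LXR genes went from 0 to 1 with length trend and block, and glycerolipid genes from 1 to 2 with the length trend removed, alone or with the block (1 to 2). SREBP processing ran from 0 to 3 and fatty acid elongation from 1 to 3 without each library. Scd2 held 23.6% of the members' summed control CPM and 16.1% of their TPM.

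Uncalled fold changes near 0 changed sign (log2). With the length trend removed Srebf1 with siRNA 2 was -0.0123, and -0.0132 with the block added. Scd2 with siRNA 2 was 0.00161 with RLE and 0.000403 with the replicate block, and Scd1 with siRNA 1 was 0.00103 with RLE and 0.000477 with only the groups compared. Without each library the values with siRNA 2 ran from -0.0032 to 0.0964 for Hmgcs1, -0.0323 to 0.0968 for Srebf1, -0.000303 to 0.237 for Srebf2 and -0.0487 to 0.0417 for Scd2. With siRNA 1 they ran from -0.015 to 0.115 for Srebf1, -0.0461 to 0.191 for Srebf2, -0.045 to 0.241 for Fasn, -0.052 to 0.0246 for Scd1 and -0.0776 to 0.0134 for Scd2. Over the named genes, 430 of the values under settings with all replicates kept direction and call, 16 lost the call, 18 gained it and 6 changed sign; without each library these were 490, 100, 8 and 14. Depth limits Abca1, which had 4 to 13 counts.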
